A study of Homo sapiens with 8 samples.

Results

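The miR-19 family and the miR-25/92 family are groups of human microRNAs (miRNAs) whose members share a seed, the stretch at bases 2 to 8 that pairs with target mRNAs. Members were chosen by name among the 1887 miRNAs of the array, and 7 guide arms were included: hsa-miR-19a-3p and hsa-miR-19b-3p of the miR-19 family, and hsa-miR-25-3p, hsa-miR-32-5p, hsa-miR-92a-3p, hsa-miR-92b-3p and hsa-miR-363-3p of the miR-25/92 family. They were measured in PC-3, an established androgen-independent line of human prostate cancer cells, after 24 h in one of 4 conditions: the solvent DMSO, luteolin, gefitinib, or the compounds together (luteolin+gefitinib), with each compound at 60 µM. Luteolin is a plant flavone, and gefitinib inhibits the kinase of the epidermal growth factor receptor. All 4 groups received the solvent, and each group had 2 one-colour arrays, which the labels call biological replicates.

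A miRNA is cut from a hairpin whose 2 arms can both yield a mature strand, of which the guide arm is loaded into Argonaute and the partner arm is mostly degraded. Many of the members are made from 3 related polycistronic clusters. The miR-17/92 cluster lies in the host gene MIR17HG, a target of MYC and E2F transcription factors that is amplified in some lymphomas. The cluster of MIR106AHG on the X chromosome is its paralogue, and the miR-106b/25 cluster lies in an intron of MCM7, which encodes a replication helicase subunit. miR-92a and miR-25 repress the pro-apoptotic gene BCL2L11 (BIM). miR-32 has been described as androgen-induced in prostate cancer.

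The mature sequences of the 7 members were taken from RefSeq (GRCh38.p14), with the seed in capitals, to show what the families share and how little separates some of their members.

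hsa-miR-19a-3p: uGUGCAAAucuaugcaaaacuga
hsa-miR-19b-3p: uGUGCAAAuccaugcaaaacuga
hsa-miR-25-3p: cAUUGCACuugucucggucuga
hsa-miR-32-5p: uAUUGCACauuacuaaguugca
hsa-miR-92a-3p: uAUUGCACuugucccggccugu
hsa-miR-92b-3p: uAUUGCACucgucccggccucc
hsa-miR-363-3p: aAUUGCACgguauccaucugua

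The 2 members of the miR-19 family were identical at 22 of 23 bases and differed by U11C, counted from the 5′ end with miR-19a-3p first. In the miR-25/92 family, miR-92a-3p matched miR-92b-3p at 19 of 22 bases, miR-25-3p at 18, miR-32-5p at 11 and miR-363-3p at 10. Among 2370 human mature miRNAs in the RefSeq table, the miR-19 seed occurred in 2 and the miR-25/92 seed in 6. The only carrier of either seed outside the 7 members was miR-367-3p, a miRNA of embryonic stem cells, which was detected on 0 of 8 arrays.

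The loci place miR-19a-3p at chr13:91350939-91350961 (plus strand) in MIR17HG. Its relative miR-19b-3p arises both at chr13:91351245-91351267 (plus strand) in MIR17HG and at chrX:134169683-134169705 (minus strand) in MIR106AHG. Likewise, miR-92a-3p arises both at chr13:91351361-91351382 (plus strand) and at chrX:134169544-134169565 (minus strand), where miR-363-3p also lies (chrX:134169382-134169403, minus strand). miR-25-3p lies at chr7:100093571-100093592 (minus strand) within MCM7, miR-32-5p at chr9:109046272-109046293 (minus strand) within TMEM245, and miR-92b-3p at chr1:155195237-155195258 (plus strand) within THBS3-AS1. Because both copies of miR-19b-3p, and both of miR-92a-3p, have the same mature sequence, their sources cannot be told apart on the array. The partner arms of the copies differ in sequence, as the hairpins of miR-19b show with the mature arms in capitals, although the probe sequences were not examined and signal of one on the probes of the other was not tested.

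MIR19B1 (chr13:91351192-91351278, plus strand): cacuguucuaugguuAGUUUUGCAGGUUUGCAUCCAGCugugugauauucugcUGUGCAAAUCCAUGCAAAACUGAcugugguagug
MIR19B2 (chrX:134169671-134169766, minus strand): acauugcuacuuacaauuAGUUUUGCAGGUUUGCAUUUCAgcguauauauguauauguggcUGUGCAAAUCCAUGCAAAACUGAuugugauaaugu

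Values are given as scaled signal, the fluorescence of a miRNA summed over its probes after each array was set to a common 75th percentile. Between 395 and 481 miRNAs were detected per array. Replicates correlated at 0.973 to 0.997 over the 365 miRNAs detected on all 8 arrays, and 41 of these differed over 2-fold between the 2 luteolin arrays, against 2 between the 2 gefitinib arrays. Of the miR-200 family, which marks epithelial cells, miR-200a-3p, miR-200b-3p and miR-429 were detected on all 8 arrays, whereas miR-200c-3p and miR-141-3p were detected on none. Of 10 marker miRNAs of blood, muscle, liver and neural cells, 8 were detected on no array, miR-9-5p was detected on all 8 (7.58 to 14.9) and miR-142-3p on 1, luteolin replicate 2 (1.67). Their part in the results was not tested. Changes in bulk RNA cannot separate fewer molecules per cell from a shift in the mixture of cells.

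To find out which members were present, detection was examined first. miR-19a-3p, miR-19b-3p, miR-25-3p, miR-32-5p and miR-92a-3p were detected on all 8 arrays. miR-92b-3p was detected on 1 array, DMSO replicate 1, at a scaled signal of 0.717, and miR-363-3p was detected on none. The first 5 could be tested, whereas the other 2 have no level beyond being below detection on 7 and 8 arrays.

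In DMSO-treated cells miR-19a-3p gave signals of 210 and 277. It gave 167 and 229 with luteolin, 173 and 210 with gefitinib, and 190 and 229 with luteolin+gefitinib. The luteolin and luteolin+gefitinib arrays lay partly within the range of the DMSO arrays, and the higher gefitinib array lay just below the lower DMSO array, both rounding to 210.

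miR-19b-3p, which differs from it by a single base, gave 530 and 637 with DMSO. Signals were 438 and 524 with luteolin, 411 and 491 with gefitinib, and 462 and 496 with luteolin+gefitinib. All 6 arrays of treated cells were below both DMSO arrays. Both arrays of a treatment were so in 17.7%, 36.0% and 33.3% of the 480 miRNAs tested below, in the same order.

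miR-92a-3p, the last miRNA of the miR-17/92 cluster, gave 209 and 225 with DMSO and 202 and 204 with luteolin, just below the DMSO arrays. It gave 160 and 175 with gefitinib, the 2 lowest arrays of the 8, and 198 and 224 with luteolin+gefitinib, which overlapped the DMSO arrays. Before scaling its mean signal in DMSO-treated cells was 197, against 206 after luteolin, 196 after gefitinib and 197 after luteolin+gefitinib. These unscaled signals carry the shift of all miRNAs between arrays that is given below.

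miR-25-3p, encoded within MCM7, varied least, from 153 to 197 over the 8 arrays. Its signals were 153 and 197 with DMSO, 154 and 192 with luteolin, 157 and 165 with gefitinib, and 155 and 159 with luteolin+gefitinib. All 6 arrays of treated cells lay between the 2 DMSO arrays.

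miR-32-5p was detected at signals of 4.88 and 6.50 with DMSO, 2.93 and 5.34 with luteolin, 4.21 and 4.48 with gefitinib, and 3.89 and 4.27 with luteolin+gefitinib. The luteolin arrays straddled the lower DMSO array, and the other 4 arrays of treated cells were below both DMSO arrays. Of its 4 probes, 2 were above the detection floor on all arrays, so its values rest on fewer spots than those of the other members.

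**Figure D1:**
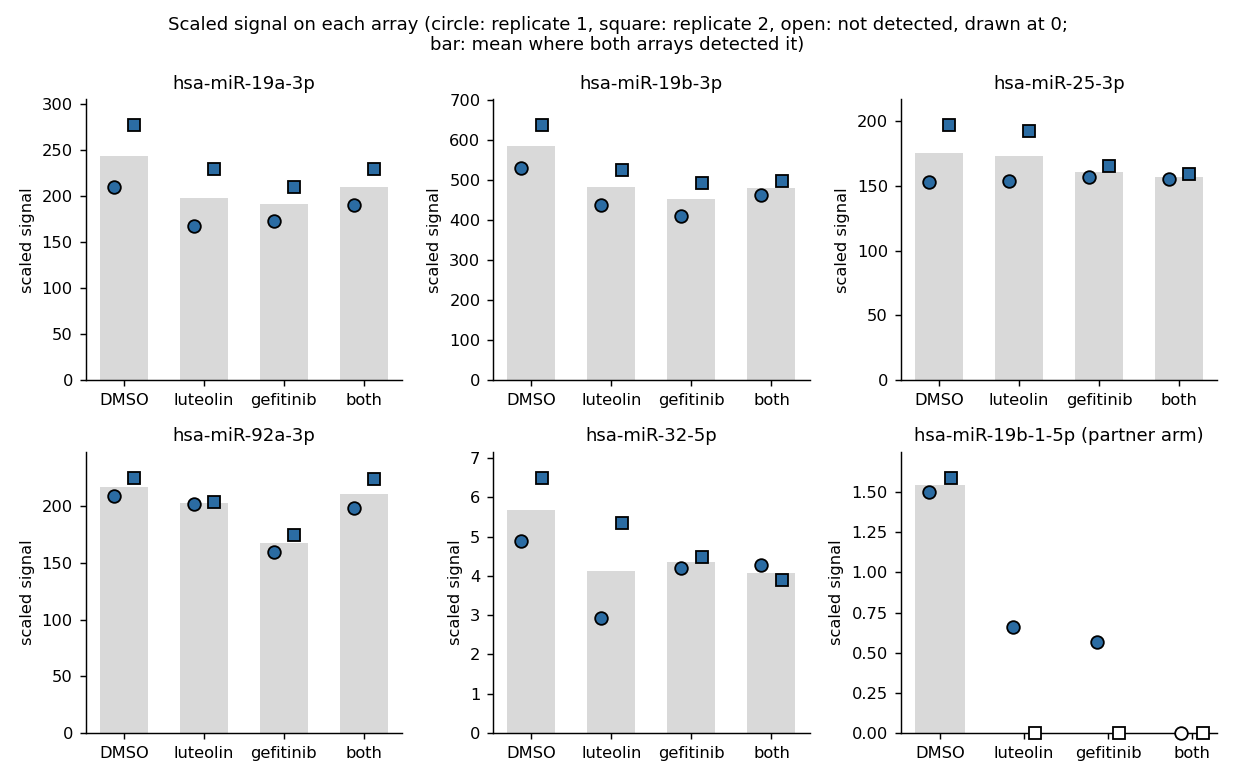
Scaled signal (linear, arbitrary fluorescence units, each panel on its own axis from 0) of the 5 detected members and of the partner arm miR-19b-1-5p on each of the 8 arrays, by treatment, with bars for the mean of 2 arrays. miR-92a-3p was lowest on both gefitinib arrays (160 and 175), miR-25-3p of treated cells lay between its DMSO arrays (153 and 197), and miR-19b-1-5p was detected on both DMSO arrays and on no luteolin+gefitinib array.

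The highest of the 8 arrays was DMSO replicate 2 for each of the 5 members. The ratio of the highest to the lowest array was 1.66 for miR-19a-3p, 1.55 for miR-19b-3p, 1.40 for miR-92a-3p, 1.29 for miR-25-3p and 2.22 for miR-32-5p, against a median of 1.72 over the 365 miRNAs. Replicate 2 was above replicate 1 in 4 of 4 groups for miR-19a-3p, miR-19b-3p, miR-25-3p and miR-92a-3p, and in 3 of 4 for miR-32-5p. The mean log2 difference between the replicates was 0.35 for miR-19a-3p and 0.11 for miR-92a-3p. A log2 difference of this size between replicates was as large as several of the differences between treatments given below.

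To compare the treatments, the 4 groups were fitted together with limma over the 480 miRNAs that both arrays of some group detected. A miRNA was called changed at a p-value under 0.05 after Benjamini-Hochberg adjustment over all 480. Luteolin changed 2.08% of all tested miRNAs and 0 of the 5 members. Gefitinib changed 12.1% of all tested miRNAs and 0 of the 5 members, and luteolin+gefitinib also changed 12.1% and 0 of the 5. At an unadjusted p under 0.05 limma gave 0, 1 and 0 members in these comparisons, against 8.54%, 23.8% and 25.8% of all tested miRNAs. The methods' t-test, run here on the same scaled log2 values and without the 2-fold requirement that the study adds to it, gave 0, 1 and 0 members, with 0 left after adjustment. Over all 480 miRNAs that test gave 26, 118 and 86, with 0, 38 and 13 left after adjustment. The single member was miR-92a-3p with gefitinib in both tests.

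The log2 fold change of miR-92a-3p with gefitinib was -0.37 ± 0.14 (SE, n = 2 arrays per group), or 0.771-fold with a 95% interval of 0.610 to 0.976. Its limma p was 0.0361 and its adjusted p was 0.170, so it did not pass. With luteolin its log2 fold change was -0.09 (limma adjusted p = 0.958), and with luteolin+gefitinib it was -0.04 (limma adjusted p = 0.899). The interval for luteolin+gefitinib ran from 0.767-fold to 1.23-fold.

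miR-19a-3p and miR-19b-3p had like values. The log2 fold change of miR-19a-3p was -0.30 with luteolin, -0.34 with gefitinib and -0.21 with luteolin+gefitinib, each ± 0.24 (SE), with limma adjusted p between 0.507 and 0.887. Leaving out 1 array at a time moved these values from -0.53 to -0.07, from -0.54 to -0.14 and from -0.41 to -0.01. That of miR-19b-3p was -0.28, -0.37 and -0.28, each ± 0.18 (SE), with limma adjusted p between 0.305 and 0.785, and ranges on leaving out 1 array of -0.41 to -0.14, -0.50 to -0.24 and -0.41 to -0.15. The interval of miR-19a-3p with gefitinib ran from 0.518-fold to 1.20-fold, and that of miR-19b-3p from 0.568-fold to 1.05-fold. Both probes of each gave like differences, from -0.20 to -0.36 for miR-19a-3p and from -0.23 to -0.44 for miR-19b-3p. Because the sequences of the 2 miRNAs differ by 1 base, signal of one on the probes of the other cannot be told apart here.

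miR-25-3p had log2 fold changes of -0.02 with luteolin, -0.11 with gefitinib and -0.15 with luteolin+gefitinib, each ± 0.19 (SE). Its limma adjusted p was 1.00, 0.805 and 0.677. The interval with luteolin ran from 0.718-fold to 1.36-fold.

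miR-32-5p had log2 fold changes of -0.51, -0.37 and -0.47 in the same order, each ± 0.31 (SE), with limma adjusted p of 0.781, 0.565 and 0.429. These were the widest standard errors of the 5 members, and the interval with luteolin ran from 0.411-fold to 1.20-fold. The luteolin value was -0.08 without luteolin replicate 1 and -0.94 without luteolin replicate 2. On leaving out 1 array, the gefitinib value ranged from -0.58 to -0.17 and the luteolin+gefitinib value from -0.67 to -0.26.

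All 5 members were lower than with DMSO in each of the 3 comparisons, at medians of -0.28 with luteolin, -0.37 with gefitinib and -0.21 with luteolin+gefitinib, a direction that other scalings of the arrays turned for some members. These values share the DMSO arrays and are therefore not independent. Over all 480 miRNAs the medians were -0.10, -0.10 and -0.16, and 64.2%, 59.8% and 66.2% of miRNAs were lower. The 2 arrays of a group did not overlap the 2 DMSO arrays for 2 members with luteolin, 4 with gefitinib and 2 with luteolin+gefitinib, against 26.9%, 57.5% and 52.9% of all tested miRNAs.

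Without scaling, 3 of 5 members were lower with luteolin, 3 with gefitinib and 5 with luteolin+gefitinib. With scaling to the human small-RNA control probes, 3, 3 and 1 were lower. The median of the members with gefitinib was then -0.00 without scaling and -0.01 with the control probes, so the 3 lower members were close to 0 in both. These settings moved all miRNAs together: the median of all 480 with gefitinib was -0.10 in the main setting, 0.26 without scaling and 0.25 with the control probes, and with luteolin+gefitinib it was -0.16, -0.13 and 0.24.

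Relative to the median of all tested miRNAs, the values varied less. With gefitinib, miR-92a-3p was -0.27 from that median, and between -0.31 and -0.25 over 6 ways of scaling. miR-19a-3p was -0.24 (from -0.24 to -0.16) and miR-19b-3p -0.27 (from -0.33 to -0.20), while miR-25-3p lay at -0.00 (from -0.15 to 0.06). miR-32-5p was at -0.27 but reached -0.02 with normexp background correction and quantile normalization. With luteolin+gefitinib, miR-92a-3p was at 0.12 (from -0.05 to 0.14). No test was made of these relative values.

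**Figure D2:**
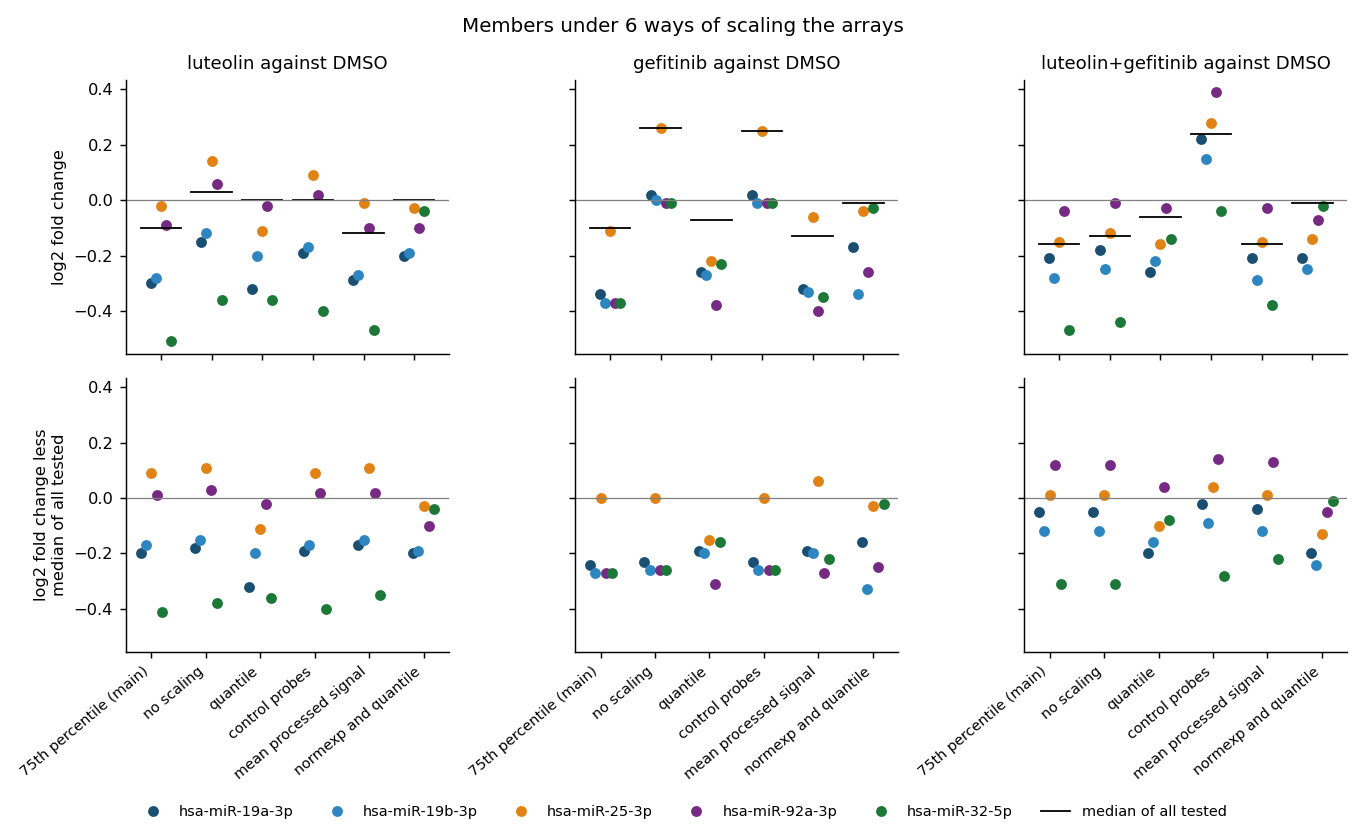
Log2 fold change against DMSO (upper row) and the same less the median of all tested miRNAs (lower row) for the 5 detected members under 6 ways of scaling the arrays, with each colour 1 member and black lines the median of all 480 miRNAs. The upper row shifts with the scaling, as with luteolin+gefitinib under the control probes, where miR-92a-3p stood at 0.39; in the lower row miR-92a-3p with gefitinib stayed between -0.31 and -0.25.

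To ask whether the combination differed from the single compounds, the treated groups were compared with each other. Luteolin+gefitinib differed from luteolin in 1.88% of all tested miRNAs and in 0 of the 5 members, where the lowest limma adjusted p of a member was 0.914. Log2 differences were 0.09 for miR-19a-3p, -0.00 for miR-19b-3p, -0.13 for miR-25-3p, 0.04 for miR-32-5p and 0.05 for miR-92a-3p. Luteolin+gefitinib differed from gefitinib in 4.58% of all tested miRNAs and in 0 members. Here miR-92a-3p had the largest difference of the 5, 0.33 ± 0.14 (SE) on the log2 scale or 1.26-fold (0.994 to 1.59), with an limma adjusted p of 0.420. The others had 0.13 for miR-19a-3p, 0.09 for miR-19b-3p, -0.04 for miR-25-3p and -0.09 for miR-32-5p. Without scaling, the difference of miR-92a-3p between these groups was -0.01.

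Gefitinib differed from luteolin in 5.00% of all tested miRNAs and in 0 members. miR-92a-3p was lower with gefitinib by a log2 difference of -0.28 ± 0.14 (SE; limma adjusted p = 0.411), and its 2 gefitinib arrays lay below both luteolin arrays. The values of miR-19a-3p, miR-19b-3p, miR-25-3p and miR-32-5p were -0.04, -0.09, -0.09 and 0.14. At an unadjusted p under 0.05 limma gave 0 members in each of these 3 comparisons, against 15.4%, 12.5% and 16.7% of all tested miRNAs. The methods' t-test gave 1, miR-92a-3p between gefitinib and luteolin, and 0 after adjustment, where it gave 68 of all 480 miRNAs and 2 after adjustment.

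The interaction asks whether the log2 change with luteolin+gefitinib departed from the changes with luteolin and with gefitinib added together. This departure was called for 3.33% of all tested miRNAs and for 0 of the 5 members, with 0 at an unadjusted limma p under 0.05 against 10.2% of all tested miRNAs. It was 0.43 ± 0.19 (SE) for miR-92a-3p (limma adjusted p = 0.562), 0.43 ± 0.35 for miR-19a-3p, 0.37 ± 0.25 for miR-19b-3p, 0.42 ± 0.44 for miR-32-5p and -0.02 ± 0.26 for miR-25-3p. Without scaling the value for miR-92a-3p was -0.07.

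When each member's 4 treatments were put in order of mean log2 signal, DMSO was highest for all 5. Gefitinib was lowest for miR-19a-3p, miR-19b-3p and miR-92a-3p, luteolin was lowest for miR-32-5p, and luteolin+gefitinib was lowest for miR-25-3p. None of the 15 pairs of neighbours in these orders passed the adjusted threshold. The smallest unadjusted limma p among neighbours was 0.0899, between luteolin and gefitinib for miR-92a-3p.

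The members encoded together were then compared with their cluster mates, miRNAs cut from the same transcripts that carry other seeds. Of 8 listed mates, miR-106a-5p was not analysed here and the other 7 were detected on all 8 arrays. limma called 0 of 7 in each of the 7 comparisons. With gefitinib, 7 of 7 were lower than with DMSO at a median log2 fold change of -0.44, and 2 had an unadjusted limma p under 0.05, against 59.8% and 23.8% of all tested miRNAs. Without scaling and with the control probes 5 of 7 were lower, at a median of -0.08. In the other comparisons 0 mates had an unadjusted limma p under 0.05, against 8.54% to 25.8% of all tested miRNAs. The methods' t-test called 1 mate after adjustment, miR-93-5p, which was higher with luteolin+gefitinib than with gefitinib by 0.17 on the log2 scale, where limma gave an adjusted p of 0.839. In this comparison the methods' t-test called 17 of all 480 miRNAs. This miRNA was named after its values were seen.

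The 3 mates with the smallest adjusted p were all in the gefitinib comparison. miR-18b-5p of the X-linked cluster gave 14.7 and 17.7 with DMSO and 10.4 and 11.5 with gefitinib, a log2 fold change of -0.56 ± 0.19 (SE; limma adjusted p = 0.147). Its paralogue miR-18a-5p gave 43.0 and 54.4 against 31.5 and 34.4, at -0.56 ± 0.21 (SE; limma adjusted p = 0.177). miR-17-5p, which represses cell-cycle regulators such as CDKN1A, gave 221 and 293 against 172 and 181, at -0.53 ± 0.22 (SE; limma adjusted p = 0.227). In all 3 the gefitinib arrays were below the DMSO arrays, as in 36.0% of all tested miRNAs, and none passed the test. With normexp and quantile normalization miR-17-5p did pass, at -0.55 (limma adjusted p = 0.0169), whereas without scaling it stood at -0.16, miR-18a-5p at -0.19 and miR-18b-5p at -0.19. The mates of miR-25-3p, miR-106b-5p and miR-93-5p, had values of -0.17 and -0.32 with gefitinib (limma adjusted p = 0.647 and 0.363).

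**Figure D3:**
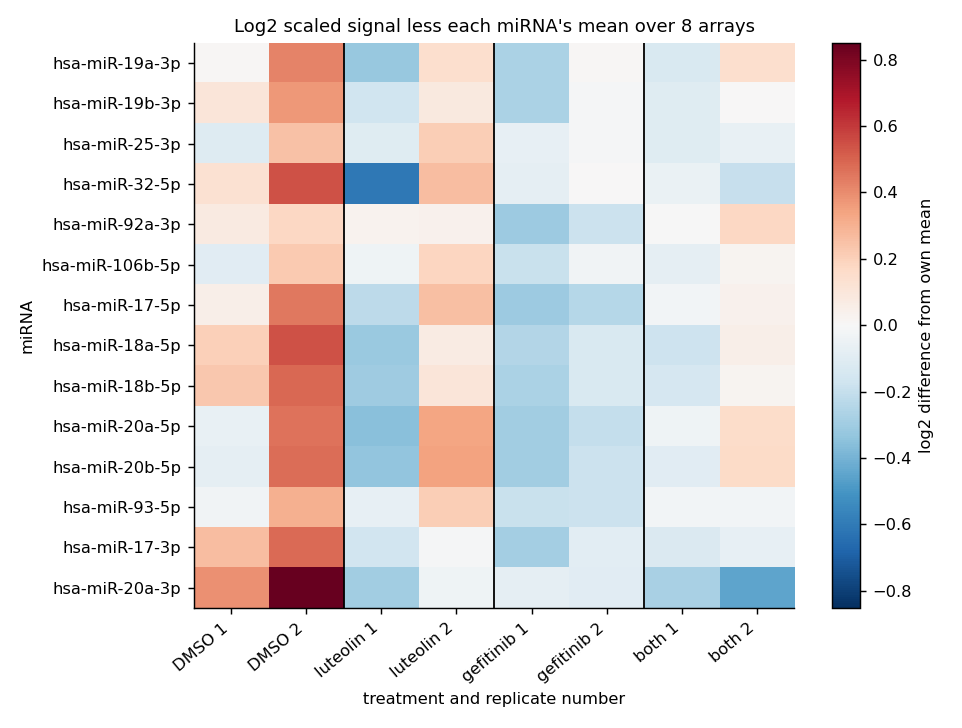
Log2 scaled signal of 5 members, 7 cluster mates and 2 partner arms on each of the 8 arrays, less the mean of each miRNA over the arrays, with red above and blue below that mean. The column of DMSO replicate 2 was highest for all 5 members, and the lowest array of miR-92a-3p was gefitinib replicate 1.

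Partner arms were the remaining products of the same hairpins. Of 17 on the array, 2 were detected on all 8 arrays and 3 could be tested. miR-19b-1-5p, the arm opposite miR-19b-3p in the MIR19B1 hairpin printed above, was called lower in all 3 comparisons with DMSO. It entered the test only because both DMSO arrays detected it, so a lower value in the other groups was partly fixed by the filter, and its calls are given as a description. Its scaled signal was 1.50 and 1.59 with DMSO, 0.662 and not detected with luteolin, 0.567 and not detected with gefitinib, and not detected on either array with luteolin+gefitinib. The DMSO arrays were thus above all arrays of treated cells on which it was detected, at signals close to the detection floor of 0.609.

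For luteolin+gefitinib, the DMSO mean was at least 2.24-fold higher, with an limma adjusted p of 0.00234. The bound sets the mean log2 signal with DMSO against that of the lowest detected miRNA on each luteolin+gefitinib array. It holds only if an undetected miRNA lies below that signal, which was not tested. With luteolin and with gefitinib, where 1 of 2 arrays detected it, the limma adjusted p was 0.00589 and 0.00361, and no bound is given. In these fits undetected and dimmer arrays were set to the floor, 1 array with luteolin and both arrays in the other 2 groups, which makes the standard errors and the p-values too small. The methods' t-test on the same values gave adjusted p of 0.462 with luteolin, 0.0301 with gefitinib and 0.0386 with luteolin+gefitinib. With 16 added to the signal before the logarithm, limma gave adjusted p of 0.451, 0.179 and 0.126. The log2 fold changes were then -0.10, -0.10 and -0.12. Quantile normalization gave limma adjusted p of 0.249, 0.0531 and 0.0531. Normexp and quantile normalization gave 0.598, 0.213 and 0.0896, at log2 fold changes of -0.03, -0.04 and -0.06. The calls were lost in 5 of 22 alternatives with luteolin, 3 of 23 with gefitinib and 3 of 22 with luteolin+gefitinib. miR-19b-3p, from the same hairpin, was not called in these comparisons, and the difference between the 2 arms was not tested.

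miR-20a-3p, the minor arm of the miR-20a hairpin in MIR17HG, was detected on all 8 arrays and gave 3.38 and 4.65 with DMSO. It gave 2.10 and 2.52 with luteolin, 2.44 and 2.42 with gefitinib, and 2.12 and 1.89 with luteolin+gefitinib. On luteolin+gefitinib replicate 2, at 1.89, no probe had most of its spots flagged well above background. All 6 arrays of treated cells were below both DMSO arrays. Both arrays of a treatment were so in 17.7%, 36.0% and 33.3% of all tested miRNAs, in the same order. It was called lower with luteolin+gefitinib, at a log2 fold change of -0.99 ± 0.20 (SE) or 0.505-fold (0.357 to 0.714; limma adjusted p = 0.0328). With luteolin it was at -0.78 (limma adjusted p = 0.241) and with gefitinib at -0.71 (limma adjusted p = 0.0892). The call with luteolin+gefitinib was lost in 14 of 23 alternatives. The log2 fold change itself shrank to -0.46 with quantile normalization (limma adjusted p = 0.646), to -0.56 with the control probes (limma adjusted p = 0.106), to -0.07 with normexp and quantile normalization (limma adjusted p = 0.350) and to -0.15 with 16 added to the signal (limma adjusted p = 0.110). It was also lost, at a log2 fold change of -0.96 or -0.99, without scaling, without the filter, with only these 2 groups in the fit and in the methods' t-test (adjusted p between 0.124 and 0.291). Log2 fold changes were between -0.90 and -1.07 where it was lost on leaving out either gefitinib array or either luteolin+gefitinib array, and at -0.76 on leaving out DMSO replicate 2. Its major arm, miR-20a-5p, gave 302 and 436 with DMSO and 308 and 353 with luteolin+gefitinib, at -0.14 ± 0.29 (SE; limma adjusted p = 0.825).

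miR-17-3p, the arm opposite miR-17-5p, gave 23.3 and 27.1 with DMSO, 17.4 and 19.3 with luteolin, 15.9 and 18.2 with gefitinib, and 17.9 and 18.5 with luteolin+gefitinib. All 6 arrays of treated cells were again below both DMSO arrays, against 17.7%, 36.0% and 33.3% of all tested miRNAs for the 3 treatments taken singly. Its log2 fold changes were -0.45, -0.56 and -0.46, each ± 0.15 (SE), with limma adjusted p of 0.408, 0.0801 and 0.132, so none was called. With 16 added to the signal the gefitinib value passed, at -0.32 (limma adjusted p = 0.0403), whereas it stood at -0.19 without scaling. The values of the 3 partner arms share the DMSO arrays.

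**Figure D4:**
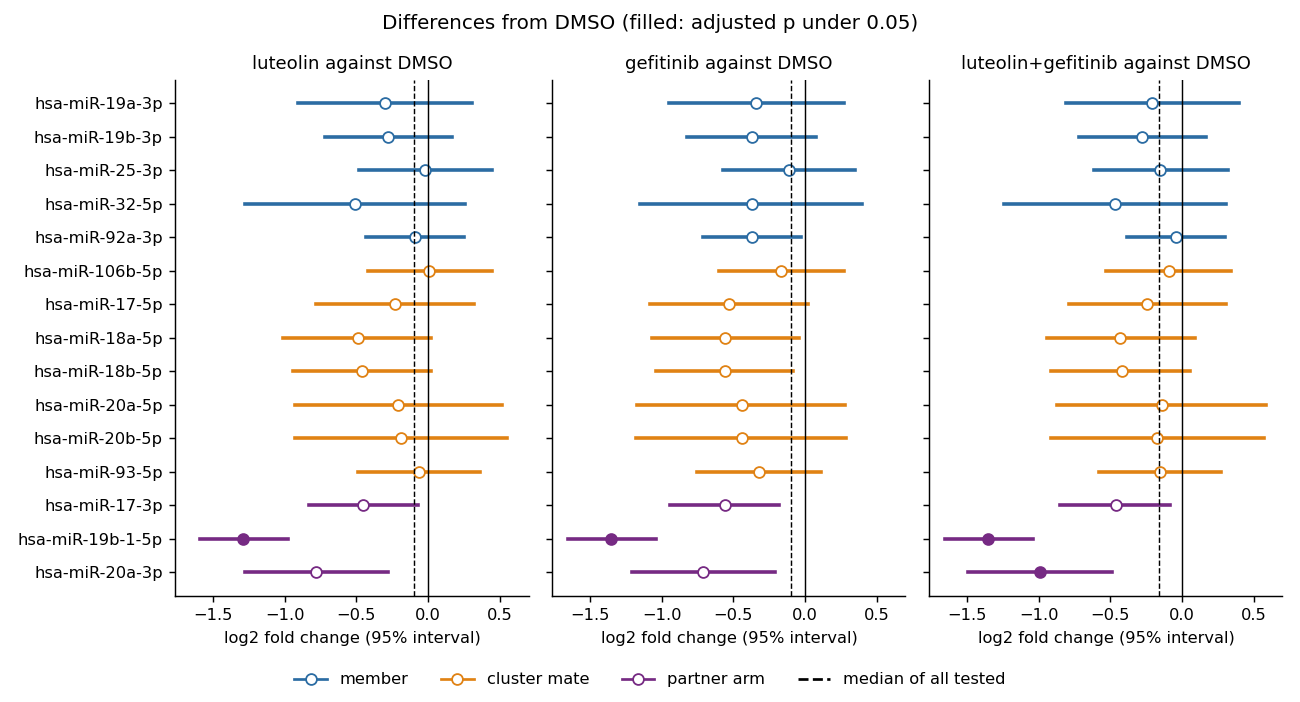
Log2 fold change against DMSO with its 95% interval from limma for 5 members, 7 cluster mates and 3 partner arms, 1 panel per treatment, with filled points for an adjusted p under 0.05 and a dashed line at the median of all 480 tested miRNAs. Filled points are miR-19b-1-5p in all 3 panels (fitted values of -1.29, -1.35 and -1.35, which rest on values set to the floor) and miR-20a-3p with luteolin+gefitinib (-0.99); the points of all members are open.

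Finally, the pattern of each member over the 8 arrays was compared with the others and with 360 non-members detected on all arrays, as a description. The arrays share 1 slide and their scaling. miR-19a-3p and miR-19b-3p had a Pearson's r of 0.941, and their log2 ratio had an SD of 0.0874 over the 8 arrays, the smallest of the 10 pairs of members. The r of miR-92a-3p was 0.688 with miR-19b-3p, 0.633 with miR-19a-3p, 0.331 with miR-25-3p and 0.233 with miR-32-5p.

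The non-members most like miR-19a-3p were miR-590-5p (r = 0.973), miR-29b-3p (0.953) and miR-4306 (0.953). Those most like miR-19b-3p were miR-4306 (0.986), miR-130b-3p (0.969) and its cluster mate miR-18b-5p (0.964). miR-25-3p was most like miR-100-5p (0.972), miR-324-5p (0.969) and miR-128 (0.968). miR-32-5p was most like miR-424-5p (0.936), miR-27a-3p (0.927) and miR-218-5p (0.918). miR-92a-3p was most like miR-181b-5p (0.942), miR-664b-3p (0.930) and miR-4454 (0.901). Only for miR-19b-3p was 1 of the 3 nearest a cluster mate.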

How the data were processed

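The authors labelled total RNA of PC-3 cells with Cy3, hybridised 8 arrays of 1 slide and extracted them with Agilent Feature Extraction 10.7.3.1 (file header). Background-subtracted intensity on a linear scale was deposited. The total signal per miRNA was used, which the software sets to 0.1 where a miRNA is not detected. The deposited series table equals the processed intensity of the spots within 0.5% for 100% of 56610 spots.

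Signals were divided by the 75th percentile of 365 miRNAs detected on all 8 arrays, brought back to the original range with the geometric mean of these percentiles, raised to a floor of 0.609 (the median of the lowest detected signals) and log2-transformed. The study's methods call the setting of treated samples against the DMSO sample a normalization, and apply a Student's t-test. Here limma 3.58.1 in R 4.3.3 was fitted to 4 groups of 2 arrays over 480 miRNAs (4 residual degrees of freedom), with two-sided p-values and a threshold of 0.05 after Benjamini-Hochberg adjustment. The script was tested on simulated data. An exact permutation test of 2 arrays against 2 cannot go below p = 0.333. The number of arrays limits the precision, and p-values measure the spread between these arrays only.

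Members and lists were chosen with earlier results of these data known. Named were all members, called cluster mates and partner arms (or the 3 with the smallest adjusted p), other carriers of the seeds, and the 3 non-members with the highest r per member. Figures were drawn with matplotlib 3.10.9. Sequences and overlapping genes came from RefSeq (GRCh38.p14), where 7 of 7 members matched. The array design is annotated on another build, whose coordinates were not used.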

Additional observations from a re-analysis of the deposited data

Results flagged for a closer look

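The interaction of miR-19b-1-5p was 1.29 on the log2 scale (limma adjusted p = 0.0222), which means that its effect in luteolin+gefitinib was smaller than the sum of the effects of both single compounds. That sum would have put its signal at 0.250, below the floor of 0.609, so the floor alone sets an interaction of 1.29. With a floor of 1 the value was 0.63 (limma adjusted p = 0.132), and leaving out any array other than the luteolin arrays raised the limma adjusted p to at most 0.0799. Groups of 2 arrays are too small for a test of single outlying arrays, so none was made.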

How the results depend on the processing

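No member was called in any of the 7 comparisons under the alternatives run for it (24 in all), with 1 exception. With log2 of the signal plus 16, miR-92a-3p was called for gefitinib against DMSO, at -0.35 (limma adjusted p = 0.0459). In that comparison the alternatives called between 14 and 70 of all tested miRNAs. Of 800 values of single members under the alternatives, 730 kept their direction and stayed short of the threshold, and 69 changed sign, none past 0.39 in size. The cause was not tested.

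Without scaling, miR-25-3p and miR-92a-3p with luteolin became 0.14 and 0.06, and miR-19a-3p and miR-25-3p with gefitinib 0.02 and 0.26. For luteolin+gefitinib against luteolin, miR-19a-3p, miR-32-5p and miR-92a-3p became -0.03, -0.08 and -0.07, and against gefitinib miR-19a-3p, miR-19b-3p and miR-92a-3p became -0.20, -0.25 and -0.01. For gefitinib against luteolin, miR-19a-3p, miR-19b-3p and miR-25-3p became 0.17, 0.12 and 0.12. The interactions of miR-19a-3p, miR-19b-3p, miR-32-5p and miR-92a-3p became -0.06, -0.12, -0.07 and -0.07.

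With the human small-RNA control probes, miR-25-3p and miR-92a-3p with luteolin became 0.09 and 0.02, and miR-19a-3p and miR-25-3p with gefitinib 0.02 and 0.25. With luteolin+gefitinib, miR-19a-3p, miR-19b-3p, miR-25-3p and miR-92a-3p became 0.22, 0.15, 0.28 and 0.39, and the mates miR-18b-5p, miR-18a-5p and miR-17-5p 0.01, 0.00 and 0.19. Against luteolin, miR-19b-3p and miR-25-3p with luteolin+gefitinib became 0.32 and 0.19, and miR-25-3p against gefitinib 0.03. For gefitinib against luteolin, miR-19a-3p, miR-19b-3p and miR-25-3p became 0.21, 0.16 and 0.16.

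With quantile normalization, miR-92a-3p for luteolin+gefitinib against luteolin became -0.00, miR-19a-3p, miR-25-3p and miR-32-5p for luteolin+gefitinib against gefitinib 0.00, 0.06 and 0.09, miR-19a-3p for gefitinib against luteolin 0.06, and the interaction of miR-25-3p 0.17. With normexp and quantile normalization, miR-19a-3p for luteolin+gefitinib against luteolin became -0.02, miR-19a-3p and miR-32-5p against gefitinib -0.04 and 0.01, and miR-19a-3p for gefitinib against luteolin 0.03. With log2 of the signal plus 16, miR-32-5p for luteolin+gefitinib against luteolin became -0.00.

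Leaving out 1 array at a time changed the sign of 17 of 35 values of members. Against DMSO these were miR-25-3p, with ranges of -0.20 to 0.17 with luteolin, -0.29 to 0.07 with gefitinib and -0.33 to 0.04 with luteolin+gefitinib, and miR-92a-3p with luteolin+gefitinib (-0.13 to 0.05). The mate miR-17-5p with luteolin ranged from -0.47 to 0.01. For luteolin+gefitinib against luteolin the ranges were -0.14 to 0.32 for miR-19a-3p, -0.13 to 0.13 for miR-19b-3p, -0.29 to 0.03 for miR-25-3p, -0.39 to 0.48 for miR-32-5p and -0.04 to 0.14 for miR-92a-3p. Against gefitinib they were -0.01 to 0.27 for miR-19a-3p and -0.04 to 0.22 for miR-19b-3p. For gefitinib against luteolin they were -0.27 to 0.19 for miR-19a-3p, -0.22 to 0.04 for miR-19b-3p, -0.25 to 0.06 for miR-25-3p and -0.30 to 0.57 for miR-32-5p. The interactions of miR-25-3p and miR-32-5p ranged from -0.20 to 0.16 and from -0.01 to 0.85.

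With the replicate number as a block, 0 members were called in each comparison, with 9, 58, 62, 5, 24, 29 and 12 of all 480 miRNAs called in the order of the report, and the lowest adjusted p of a member was 0.106, for miR-92a-3p with gefitinib. The partner arm miR-17-3p with gefitinib then passed, at an limma adjusted p of 0.0444. The labels do not say that a number marks a shared batch, and deviations of arrays with the same number correlated at 0.908, 0.461 and 0.409 among DMSO, luteolin and luteolin+gefitinib, but at -0.135, -0.0932 and 0.0652 in the pairs with gefitinib. Since not every pair passed 0.1, the numbers were not taken to pair the arrays. Because DMSO and gefitinib correlated below -0.1, crossed numbers were added after seeing the data for that comparison alone, with 0 members and 54 of all miRNAs called.

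Counts over all miRNAs moved more. The 10 calls with luteolin ranged from 0 (groups compared only, and 2 other settings) to 18, the 58 with gefitinib from 14 (gefitinib arrays as 1 sample) to 70, and the 58 with luteolin+gefitinib from 12 (no filter) to 99 (control probes). The 9 calls between luteolin+gefitinib and luteolin ranged from 0 to 28, the 22 between luteolin+gefitinib and gefitinib from 7 to 41, the 24 between gefitinib and luteolin from 0 to 48, and the 16 interactions from 2 to 24. Scaling to the 75th percentile over all miRNAs was not usable, since on 5 arrays that percentile was the placeholder of 0.1. With 2 arrays per group the intervals of the members were wide, and miRNAs near the floor of 0.609 have only bounds.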
